A study of Mus musculus with 4 samples.

Results

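Cytoplasmic ribosomal protein genes were examined in the ureter of adult male mice. They were all genes named by a single symbol on the array that match the pattern of the large subunit (Rpl, Rplp) or small subunit (Rps, Rpsa) names, with the Rps6k kinases left out. The pattern gave 49 genes with 105 probe sets, of 18193 named genes in all, 23 of them for the small subunit and 26 for the large subunit. All 49 gene identifiers were found in RefSeq, and all 49 symbols were unchanged there. A further 28 symbols of the same pattern, such as Rpl3, Rpl5 and Rpl32, occur only on probe sets that also list other genes, mostly pseudogenes, and are not analysed here.

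The study profiled the ureter, the muscular tube between kidney and bladder, in 4 unpooled samples of 1 group. The mice were adult males on the FVB/N strain at Theiler stage 28 and carried the SMGA/EGFP transgene, in which green fluorescence follows the smooth muscle gamma actin gene. The tissue was dissected by that fluorescence, its RNA was amplified in 2 rounds, and each sample was hybridised to 1 Affymetrix MOE430 array. There was no second group to compare with, and the labels do not say that each sample is a separate animal. Replicates 1 to 4 are numbered only to tell them apart. The p-values therefore take in only the variation between these samples.

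Ribosomes translate messenger RNA into protein. Each has a small subunit, which reads the message, and a large subunit, which joins amino acids, and each subunit is a set of proteins folded onto ribosomal RNA. The proteins are needed in nearly equal numbers, and their messenger RNAs are short, abundant and marked at their start by a run of pyrimidines, the terminal oligopyrimidine tract, through which growth signals control their translation. Many have processed pseudogenes, so that probe sets can match several transcripts.

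The annotated start regions were searched for runs of pyrimidines, wherever these lay near the start. In the RefSeq promoter table (GRCm38.p6, 250 bases before to 50 after an annotated start) 43 of the 49 genes were found; Rpl7, Rpl8, Rps14, Rps20, Rps29 and Rps4l were not matched. A run of at least 8 bases that are all C or T, on the gene's strand and within 30 bases on either side of a start, was present in 24 of these 43 genes (55.8%), and in 25.8% of all 27025 genes of the table. The other 19 had none. A run was present in 3 of 5 matched paralogs and in 21 of 38 other members. Annotated starts are not exact, and the absence of a run says only that it is not in that window. Nor is a run in the window by itself a tract at the start of the message. Relative to the annotated start, the longest run began at position -26 in Rpl39l, -22 in Rps25 and 14 in Rpl11. The following 30 bases, 5′ to 3′ on the gene's strand, are shown for members with a run whose values are described further on (Rps18, Rpl13a, Rps10, Rpl11, Rps25), for a member without one (Rps28) and for 3 paralogs, with and without a run. Capitals mark the longest run of C and T near the start.
Rps18, chr17:33955648-33955677, minus strand: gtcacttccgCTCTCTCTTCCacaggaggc
Rpl13a, chr7:45128722-45128751, minus strand: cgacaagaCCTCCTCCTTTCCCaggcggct
Rps10, chr17:27635227-27635256, minus strand: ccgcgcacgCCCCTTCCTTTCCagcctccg
Rpl11, chr4:136053358-136053387, minus strand: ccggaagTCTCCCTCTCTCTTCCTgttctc
Rps25, chr9:44407684-44407713, plus strand: ccaccgggCTTCCTTTTTTTCCgacatctt
Rps28, chr17:33824567-33824596, minus strand: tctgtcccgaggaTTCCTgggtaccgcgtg
Rpl22l1, chr3:28805499-28805528, plus strand: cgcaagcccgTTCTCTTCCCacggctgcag
Rpl39l, chr16:10170191-10170220, plus strand: aacacccactgCCTCTCCCTagctcccagg
Rpl3l, chr17:24727822-24727851, plus strand: ctctgtcatttgaCCTCTggtgcctggtgg
The run was 17 bases long in Rpl11 and 14 in Rps25 and Rpl13a, while the longest run near a start of Rpl3l and of Rps28 was 5.

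A second feature was the letters CCGGAAG on either strand, a core that ETS family factors are known to bind. It lay in the 300-base windows of 21 of the 43 genes (48.8%) and of 9.93% of all genes in the table. The letters AAGATGGC, a core bound by the factor YY1, lay in 4 of 43 (9.30%) and in 3.19% of all genes. The 40-base stretches below show the first of these motifs, or its reverse complement, in capitals, in members near the arrays' upper signal limit (Rps2, Rpsa, Rps3a1) and in Rps6.
Rps2, chr17:24719920-24719959, plus strand: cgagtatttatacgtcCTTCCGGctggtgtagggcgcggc
Rpsa, chr9:120127562-120127601, plus strand: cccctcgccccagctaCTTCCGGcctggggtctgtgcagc
Rps3a1, chr3:86142669-86142708, minus strand: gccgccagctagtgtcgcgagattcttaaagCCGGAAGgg
Rps6, chr4:86857435-86857474, minus strand: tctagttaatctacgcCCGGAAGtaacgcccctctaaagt
In Rps3a1 the motif starts 9 bases before the annotated start, and in Rps2 and Rpsa it reads on the opposite strand.

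Levels are log2(intensity + 16) of a gene's probe set with the highest mean, and means are given ± SD with n = 4. A gene was above background where any of its probe sets lay over the arrays' own thresholds (7.25, 6.99, 7.56 and 7.36 in replicates 1 to 4, the 95th percentile of 87 chemosensory receptor probe sets) by limma's moderated one-sided test with Benjamini-Hochberg adjusted p under 0.05. Every array had been scaled to the same trimmed mean intensity of 1500. The ratio of 3' to 5' signal of Gapdh was 18.8 in replicate 4 and 31.6 to 36.9 in the others. That of Actb was 8.23, 19.8, 5.27 and 4.43 in replicates 1 to 4, highest in replicate 2. Markers of other tissues differed between the samples. All 14 skeletal muscle markers lay over the threshold in replicate 3 and 3 to 5 of them in the others, and 9 and 8 of 9 liver markers did so in replicates 1 and 3 and 1 in each of the others. Markers of the ureter itself were present, with 9 or 10 of 10 contractile smooth muscle genes and 8 to 10 of 10 urothelial genes over the threshold on each array. Amounts differed: the smooth muscle markers summed to an intensity of 26008, 84500, 53903 and 32575 in replicates 1 to 4. The 8 fibroblast and matrix markers summed to 134517, 135060, 25885 and 108603, and the 8 male reproductive secretory markers to 7749, 70228, 123677 and 1106. This last list split: Msmb (78919 in replicate 3), Pbsn (43669) and Tgm4 were higher in replicate 3 than in replicate 2. Svs2, Svs4, Svs5, Svs6 and Pate4 were higher in replicate 2, with Svs4 at 28479 there and 77.7 in replicate 3.

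The adult ureter expressed nearly all measured ribosomal protein genes, many of them at signals close to the upper limit of the array. Of the 49 genes 46 were above background, where 57.9% of all named genes were. They were 22 of 23 small subunit genes and 24 of 26 large subunit genes. Of the measured genes known for mutations in Diamond-Blackfan anaemia, an inherited failure of red cell production, 11 of 11 were above background. The 3 genes that did not pass were Rpl3l, Rpl39l and Rps16, described further on. In bulk tissue, fewer cells of a type and less RNA per cell cannot be told apart.

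The highest probe set of any kind reached an intensity of 112779, 108594, 122593 and 77936 in replicates 1 to 4. The top of replicate 4 was thus the lowest of the arrays. Within a factor of 2 of that top lay 27, 25, 24 and 29 of the 49 genes in replicates 1 to 4. Counted as probe sets, 36, 35, 32 and 43 of the 105 member probe sets lay there. Of all 45037 probe sets outside the controls 221, 208, 213 and 283 did. In replicate 4 the highest probe set of the whole array was that of Rps3a1, a small subunit protein, and in the others the highest member reached 84.4% to 91.4% of the top. Members at this limit can be compressed, so a small spread among them is not by itself a small spread of RNA.

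**Figure D1:**
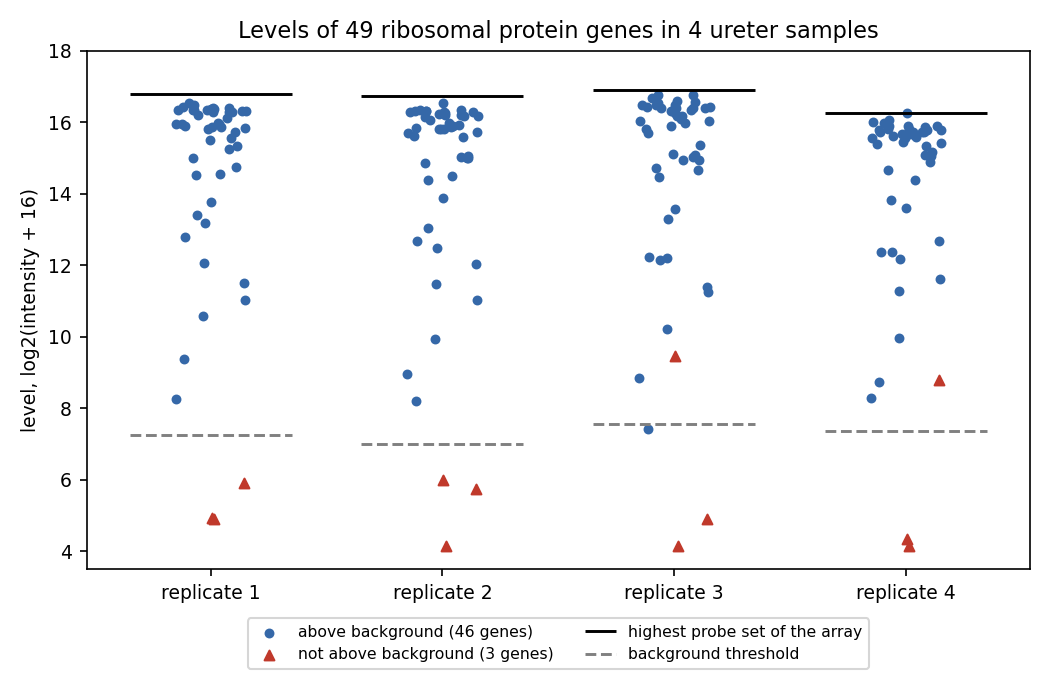
Level of each of the 49 ribosomal protein genes (vertical axis, log2(intensity + 16)) in the 4 samples (horizontal axis). Circles are the 46 genes above background, triangles the 3 others; the solid line is the highest probe set of the array and the dashed line its background threshold. Between 24 and 29 genes crowd within a factor of 2 of the top of each array, and that top is lowest in replicate 4.

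The genes used as reference standards in quantitative PCR mostly followed a shared pattern, which depended on the scaling. Rplp0 encodes the base of the ribosomal stalk that recruits translation factors, and its levels were 16.37, 16.25, 16.19 and 15.75 in replicates 1 to 4 (16.14 ± 0.27). It was lowest in replicate 4, and after quantile normalization in replicate 3. Rpl13a, a large subunit protein also known for a role outside the ribosome in silencing inflammatory messages, had 16.54, 16.36, 16.67 and 15.98 (16.39 ± 0.30). Rpl19 had 15.88, 15.81, 16.25 and 15.64 (15.90 ± 0.26). Rps18 and Rps29, of the small subunit, had 16.28 ± 0.20 and 16.40 ± 0.29, and Rpl4, at the wall of the exit tunnel for new protein, had 16.22 ± 0.22. Of the 6 probe sets of Rps18 only 3 were above background, and the others had mean levels of 6.01, 5.84 and 5.04. All 5 of Rpl13a, Rpl19, Rps18, Rps29 and Rpl4 were highest in replicate 3 and lowest in replicate 4 with the deposited scaling, but none of them was lowest in replicate 4 after quantile normalization, where Rpl19, Rps18, Rps29 and Rpl4 were highest there. On its brightest probe set Rpl27 was the exception, with 14.74, 15.05, 14.95 and 15.06 (14.95 ± 0.15), highest in replicate 4 under both scalings. With the deposited scaling its intensity there was 34055, hardly above the 33946 of replicate 2. Its other probe sets were then highest in replicate 3, at 31120 and 26943, against 28407 and 24387 in replicate 4. The reference genes other than Rpl27 lay within a factor of 2 of the top on every array.

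Among stalk, receptor-like and regulated members the order of the samples again depended on the scaling, except in Rps6. Rplp2, an acidic stalk protein, had 16.28, 16.30, 16.39 and 15.91 (16.22 ± 0.21). Rpsa, the small subunit protein also known as a laminin receptor, had 15.95, 15.88, 16.16 and 15.63 (15.91 ± 0.22). Rps4x, the X-linked form of a small subunit protein, had 16.30, 16.17, 16.56 and 15.77 (16.20 ± 0.33). In each of the 3, replicate 4 was lowest and replicate 3 highest with the deposited scaling, but after quantile normalization replicate 4 was lowest in none of them and highest in Rplp2 and Rpsa. Rps6, the small subunit protein phosphorylated downstream of mTOR, had 14.53, 14.37, 14.48 and 13.83 (14.30 ± 0.32), lowest in replicate 4 under both scalings. The second probe sets of Rpsa, Rps4x and Rps6 were not above background, with mean levels of 7.11, 5.04 and 7.72.

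Across the 46 genes above background, replicate 4 held the lowest value of 31 and replicate 3 the highest of 25 with the deposited scaling, while after quantile normalization replicate 4 held the lowest of 7 and the highest of 21, and replicate 3 the lowest of 23 and the highest of 7. The median difference of a sample from the mean of the other 3 was 0.15, 0.01, 0.23 and -0.40 log2 units in replicates 1 to 4, against 0.03, 0.03, -0.05 and 0.05 over all 10528 named genes above background, and after quantile normalization it was -0.019, 0.026, -0.065 and 0.034 for the members, so that the directions in replicates 1, 3 and 4 turned. With the deposited scaling 39, 24 and 35 of the 46 were higher than the mean of the other samples in replicates 1, 2 and 3, and after quantile normalization 22, 28 and 16 were. Of all named genes above background 53.3%, 52.3% and 47.4% were higher and 46.7%, 47.7% and 52.6% lower in those samples. In replicate 4, 41 of the 46 were lower and 5 higher, where 46.6% of all named genes were lower and 53.4% higher, and after quantile normalization 28 of the 46 were higher there. Small and large subunit genes did not part: the medians in replicate 4 were -0.36 and -0.41 with the deposited scaling, and 0.089 and 0.022 after quantile normalization. Quantile normalization moved the median level of all probe sets by 0.20, 0.36, -0.36 and -0.09 in replicates 1 to 4, while among those above background the largest shift was -0.09, in replicate 4.

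The low values of replicate 4 under the deposited scaling were most uniform among the brightest genes. These were picked by nearness to each array's own top. Because that top was lowest in replicate 4, lower values of such genes there were largely fixed by the choice. The 22 member genes within a factor of 2 of the top on every array were all lower there, with a median of -0.51 log2 units, and the 24 others had a median of -0.22 with 5 higher; after quantile normalization the medians were 0.057 and 0.021. The 46 genes outside the family that lay as near the top on every array were also all lower in replicate 4, with a median of -0.53 that became -0.027 after quantile normalization. Their medians in replicates 1 to 3 were 0.19, -0.01 and 0.35, beside 0.12, 0.01 and 0.34 for the 22 bright members. When each array was scaled to bright probe sets outside the family instead, an alternative added after the data were examined, the members' median in replicate 4 was 0.19 and that of all named genes 0.63. Markers of other cell types also differed in these samples, with skeletal muscle markers high and fibroblast markers low in replicate 3. The summed intensity of the male reproductive markers was lowest in replicate 4. The part of these cell types in the shifts was not tested.

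Probe sets of one gene did not all share the order of the samples, and in 7 genes above background some probe set was not above it. With the deposited scaling, of 20 genes with 2 or more probe sets above background, the brightest was lower in replicate 4 in 18, and in 12 of these another probe set of the same gene was higher there. For Rpl22, a large subunit protein that also binds viral and cellular RNAs, the brightest probe set had intensities of 87555, 81095, 87465 and 56130. Its dimmest probe set had 19881, 24205, 10164 and 31155. Replicate 4 was thus lowest on the first and highest on the other, and after quantile normalization replicate 3 was lowest on both. For Rps20, of the small subunit head, the brightest probe set had 83833, 81340, 94435 and 60657, while its dimmest had 1215, 948, 533 and 1558, lowest in replicate 3 under both scalings. Over all 47 probe sets above background that were not the brightest of their gene, the median in replicate 4 was -0.12, with 21 higher and 26 lower, and after quantile normalization it was 0.22, with 31 higher and 16 lower.

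**Figure D2:**
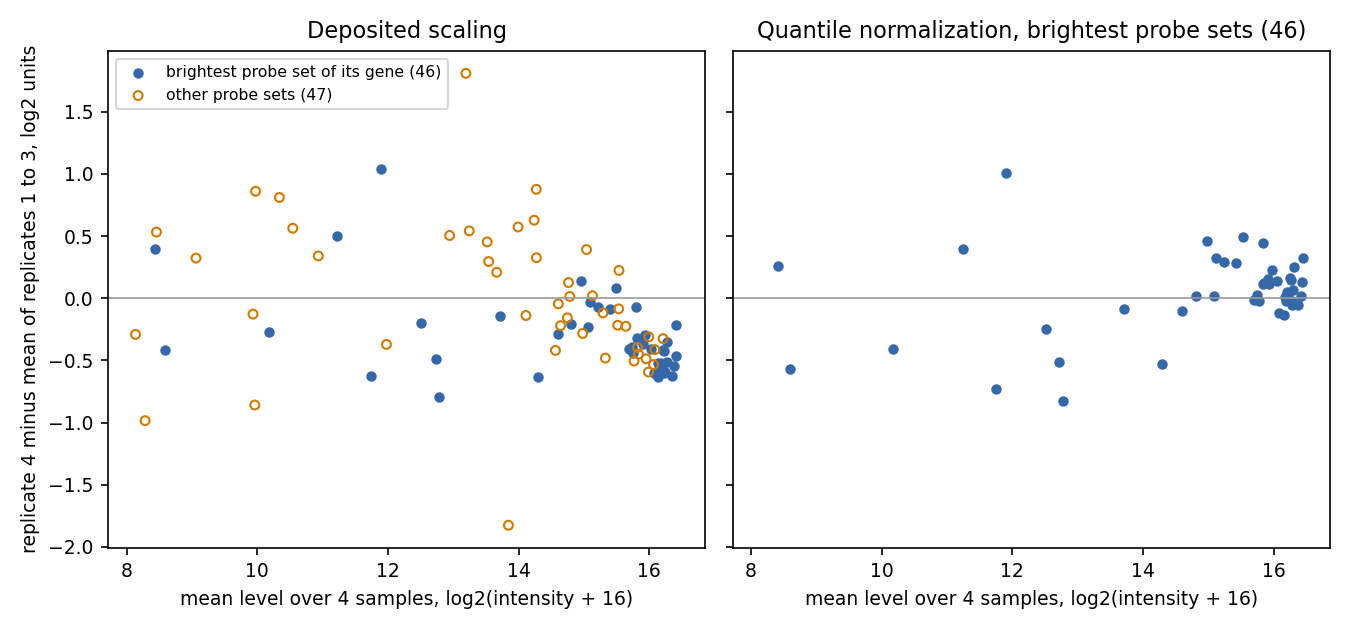
Replicate 4 minus the mean of replicates 1 to 3 (vertical axis, log2 units) against mean level (horizontal axis, log2(intensity + 16)) for ribosomal protein probe sets above background, left with the deposited scaling (filled, the 46 brightest probe sets of their genes; open, 47 others) and right after quantile normalization (the 46 genes). On the left 41 of the 46 filled points lie below 0 and 5 above, with a median of -0.40; on the right the same genes centre on 0.034.

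The spread between samples was compared with that of other probe sets of like level. The spread test compares a gene's variance over the 4 samples with limma's prior variance for probe sets of like level, by an F test with 3 and 5.25 degrees of freedom. Rpl3l, Rpl39l and Rps16, not above background, were not tested. Among the 46 genes, 0 passed at an adjusted p under 0.05, where 0% of all named genes did, and 0 had an unadjusted p under 0.05, where 5.42% of all named genes did. Since no named gene passed with 4 samples, this does not show that the members were stable, and the test cannot see spread that most probe sets of that brightness share. The median SD of the 46 was 0.27 log2 units, against 0.41 over all named genes above background, and 40 of the 46 lay below that median. Relative to the variance usual at their own level, the median variance was 0.957 times for the members and 0.828 times for all named genes. A ratio under 1 was found in 24 of the 46, and in 57.2% of all named genes above background. After quantile normalization the members' median SD was 0.12 and that of all named genes 0.40. That scaling gives probe sets of equal rank the same value on every array, which by itself can narrow the spread of members ranked at the top.

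**Figure D3:**
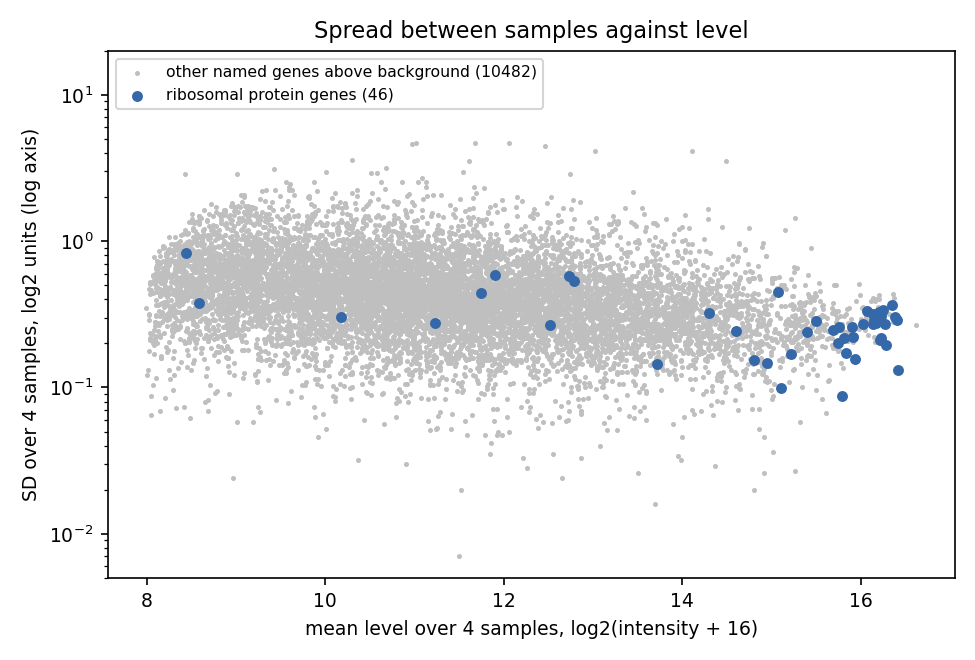
SD over 4 samples (vertical axis, log2 units on a log axis) against mean level (horizontal axis, log2(intensity + 16)) for named genes above background, grey for 10482 other genes and blue for the 46 ribosomal protein genes. The ribosomal protein genes gather at the bright end, with SDs from 0.087 to 0.83 and a median of 0.27.

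With the deposited scaling the smallest SDs were those of Rps10, Rps19 and Rps3a1. After quantile normalization theirs were 0.25, 0.18 and 0.24, above the members' median, and Rps4x (0.031), Rpl7 (0.032) and Rpl6 (0.036) had the smallest. These last genes lay within a factor of 2 of the top on every array, where that scaling can by itself narrow the spread. Rps10, a small subunit protein near the messenger RNA entry, had 15.90, 15.83, 15.71 and 15.74 (15.79 ± 0.09). All 6 of its probe sets were above background, but with the deposited scaling their SDs ran from 0.065 to 0.70. Rps19, the first gene linked to Diamond-Blackfan anaemia, had 15.24, 15.04, 15.03 and 15.08 (15.10 ± 0.10). Rps3a1 had 16.36, 16.54, 16.49 and 16.25 (16.41 ± 0.13), within a factor of 2 of the top on every array. The SDs of Rpl22l1, Rpl27, Rps15, Rpl35 and Rps26 were between 0.15 and 0.17, and between 0.084 and 0.27 after quantile normalization.

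On their brightest probe sets, the members with the widest spread above background included Rps27, Rps25, Rpl11 and the paralogs Rps4l and Rpl7l1. Rps27, a small zinc finger protein of the small subunit, had 9.39, 8.21, 7.43 and 8.74 (8.44 ± 0.83). It was under the threshold in replicate 3, and its call (adjusted p = 0.026) was lost without replicate 1, 2 or 4 and with higher background thresholds. Rps25, known for its part in translation from internal entry sites, had 13.40, 13.03, 12.14 and 12.36 (12.73 ± 0.58), high in replicates 1 and 2 under both scalings. Rpl11, which with Rpl5 and ribosomal RNA can bind Mdm2 and so stabilise p53, had 15.72, 15.00, 14.67 and 14.89 (15.07 ± 0.45), highest in replicate 1 under both scalings. For Rpl11 the unadjusted spread p was 0.17, from an F test on limma's prior variance, and its variance was 2.48 times that usual at its level, the highest such ratio among the 46 genes. Rpl27a had 11.75 ± 0.44 and Rpl39, a short protein of the exit tunnel, had 8.59 ± 0.38. Rps28, of the messenger RNA exit site, had 16.40, 16.33, 16.77 and 15.88 (16.35 ± 0.37), low in replicate 4 with the deposited scaling but lowest in replicate 1 after quantile normalization, when its SD was 0.056.

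Paralogs parted into those present in every sample and those seen in 1 sample. Of 6 measured paralogs 4 were above background (66.7%), a share near the 57.9% of all named genes. Rpl22l1, the paralog of Rpl22, had 13.78, 13.89, 13.58 and 13.60 (13.71 ± 0.15), and Rps27l, known as a target of p53, had 14.56, 14.51, 14.95 and 14.38 (14.60 ± 0.24). Rpl7l1, a nucleolar protein related to Rpl7, had 13.17, 12.49, 13.29 and 12.19 (12.78 ± 0.53) on its brightest probe set. Its other probe sets, also above background, had intensities of 1864, 1982, 1658 and 2320, and of 1077, 1527, 1457 and 1984. With the deposited scaling both were highest in replicate 4, where the brightest was lowest. Rps4l had 11.50, 12.03, 11.39 and 12.68 (11.90 ± 0.59), highest in replicate 4 under both scalings.

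Rpl3l, the paralog that replaces Rpl3 in striated muscle, was over the threshold in replicate 3 alone. Its intensities were 14.3, 47.9, 690 and 4.18 in replicates 1 to 4, and its level was 9.46 in replicate 3. The mean lay 1.11 log2 units under the threshold (adjusted p = 1). The 14 skeletal muscle markers, all over the threshold in that sample, summed to an intensity of 264601 there and to 1250 to 1465 in the others. Myh4, a fast myosin heavy chain, had 16.39 there and 4.14 to 4.52 elsewhere. Its part in the level of Rpl3l was not tested.

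Rpl39l, a paralog of Rpl39 known for high expression in male germ cells, was over the threshold in replicate 4 alone. Its intensities were 44.0, 37.2, 13.7 and 424, and its levels 5.91, 5.73, 4.89 and 8.78. Of 10 male germ cell markers 0 passed the test. In replicates 1 and 4, 1 of the 10 was over the threshold, and 0 in replicates 2 and 3, with summed intensities of 404 to 664 over the 4 samples. Rps16, a small subunit protein, had intensities of 14.2, 1.86, 1.88 and 1.59 on its only single-symbol probe set. That probe set was under the threshold on every array. Other probe sets that list Rps16 together with other genes were not used, so this gives no level for the gene.

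**Figure D4:**
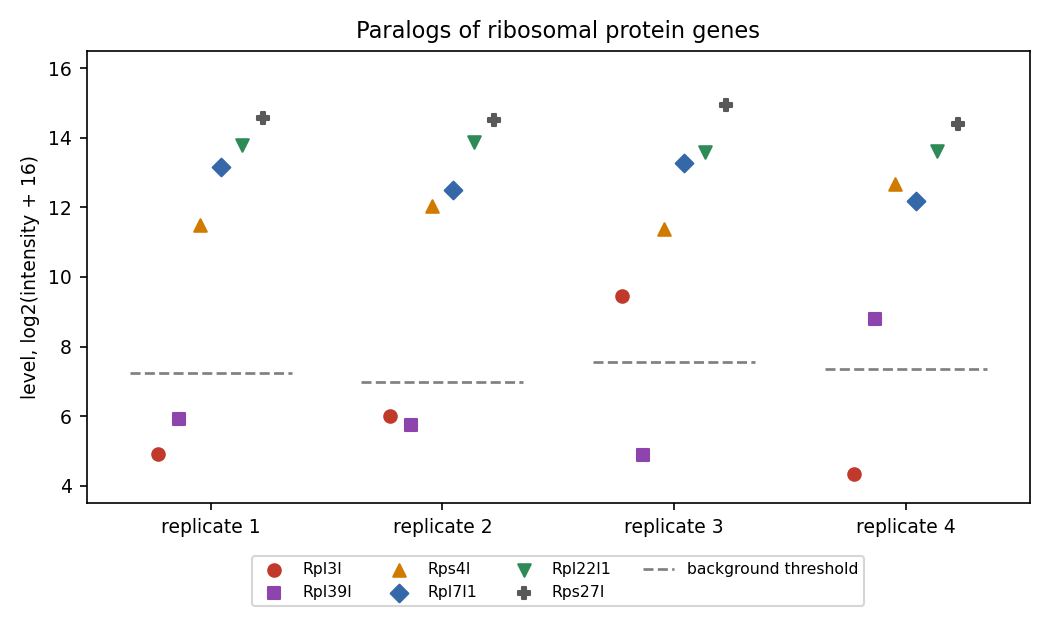
Level (vertical axis, log2(intensity + 16)) of 6 ribosomal protein paralogs in the 4 samples (horizontal axis), with the background threshold of each array dashed. Rpl22l1, Rps27l, Rpl7l1 and Rps4l lie over the threshold in every sample, Rpl3l in replicate 3 alone (9.46) and Rpl39l in replicate 4 alone (8.78).

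Single probe sets of 2 members differed more than their genes' brightest ones; they were chosen after their values were seen. The second Rps9 probe set had intensities of 4456, 56429, 32579 and 5679, a 12.7-fold range, high in replicates 2 and 3. The brightest Rps9 probe set had 48697, 49444, 34612 and 41191 and another 410, 554, 517 and 616, neither with that pattern. Its unadjusted spread p was 0.00096 and its adjusted p 0.448, from the F test on limma's prior variance. The second Rps7 probe set had 6430, 6738, 7370 and 23978, high in replicate 4, while the brightest had 86587, 74775, 99183 and 57233, lowest in replicate 4. Its unadjusted spread p was 0.034 and its adjusted p 0.749 by the same limma test. Both are of the type that can match several transcripts. Of the 93 member probe sets above background these were the 2 with an unadjusted p under 0.05, where 6.27% of all probe sets above background had one.

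Other genes of protein synthesis were expressed as widely, where 57.9% of all named genes were above background. All 30 measured translation factors were above background, among them Eef1a1, which brings aminoacyl-tRNA to the ribosome, at 16.36 ± 0.44, Eef1b2 at 15.28 ± 0.21 and Eef1d at 14.88 ± 0.15. Eef1a1 had 16.46, 16.33, 16.85 and 15.79, lowest in replicate 4 with the deposited scaling. Of 36 ribosome biogenesis genes 35 were above background, including the nucleolar proteins Fbl (13.09 ± 0.55), Ncl (14.74 ± 0.32) and Npm1 (15.29 ± 0.20). All 76 mitochondrial ribosomal protein genes were above background. In replicate 4 the median difference from the other samples was -0.29 for the translation factors, -0.19 for ribosome biogenesis and -0.01 for the mitochondrial family with the deposited scaling, and -0.030, -0.25 and -0.065 after quantile normalization.

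Fau, whose product is processed to a small subunit protein, had 14.69 ± 0.17, Tpt1, a growth-related protein whose message starts with a pyrimidine tract, had 16.37 ± 0.41, and Naca, which binds new chains at the exit tunnel, had 14.81 ± 0.20. With the deposited scaling Tpt1 was lowest in replicate 4 at 15.83 and Fau in replicate 3 at 14.50. Of 18 measured genes of growth control and the S6 kinases 14 were above background (77.8%, against 57.9% of all named genes). The kinase genes Rps6ka3, Rps6ka5 and Rps6ka6 had 13.93 ± 0.49, 10.90 ± 0.76 and 9.50 ± 1.25.

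With the deposited scaling, among 10482 genes above background outside the family, the profile most like the members' median was that of Pgk1, a glycolytic enzyme, with a root mean square distance of 0.018 log2 units over 4 samples. Tmem106a, Zfp511, Btbd1 and Psmc2, a proteasome subunit, followed at 0.021 to 0.023. With 4 samples such likeness is a description, and it was not recomputed after quantile normalization, when the members' median profile turned in replicates 1, 3 and 4.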

How the data were processed

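Affymetrix MOE430 arrays of 4 ureter samples were analysed. The deposited values are linear intensities, 1 for each probe set in each sample, already brought to a common scale (from the values). The submitters' processing notes name GCOS, without version or settings. Arrays have no read depth; their number sets the precision.

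Of 45101 probe sets, 64 controls were left out of tests. Symbols came from the platform annotation: 34945 tested probe sets have 1 symbol, 932 several (unused for names) and 9160 none. Tests used limma 3.58.1 in R 4.3.3 with trended robust priors on log2(intensity + 16), and were tested on simulated data. The background test ran over all 45037 probe sets outside the controls, and the spread test over the 18434 above background. 0 of 87 chemosensory probe sets were called above background. 0 columns were left unused.

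The members and lists were chosen with earlier results of these data known. Genes named are the paralogs, reference genes, stalk genes, Rpsa, Rps6, Rps4x, members not above background, the 8 members with the largest and the 8 with the smallest SD, the first 3 measured genes of each related list, and 5 genes of most similar profile; others were chosen after their values were seen. Alternatives were pseudocounts, normalization, background, filters, probe set choice and leaving out each sample.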

Additional observations from a re-analysis of the deposited data

Results flagged for a closer look

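Of 43 values tested for a single sample far from the others, 1 stood out, and chance gives about 5% of such groups. The single-symbol probe set of Rps16 had an intensity of 14.2 in replicate 1 against 1.59 to 1.88 elsewhere; the gap between replicate 1 and the rest was 0.970 of the whole range on the log2 scale. All 4 values lay under the background thresholds.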

How the results depend on the processing

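The count of 46 genes above background was 43 to 46 under the other pseudocounts, quantile normalization, other backgrounds, scaling to bright probe sets and the rule that the brightest probe set decides, and 45 to 46 when each sample was left out. Leaving out probe sets of the type that can match several transcripts, 22 of 26 genes were above background, as fewer genes had a probe set. Without them the level of Rps18 lay -1.43 log2 units from the threshold. When the threshold was set 3 median absolute deviations over the chemosensory median, Rps27 lay at -0.91 and Rpl39 at -0.77. The spread test passed 0 members under each alternative run. Leaving out each sample gave a median SD of 0.16 to 0.31, the lowest without replicate 4, and member medians of -0.00083 to 0.27, -0.13 to 0.11, 0.12 to 0.33 and -0.43 to -0.35 in replicates 1 to 4. Quantile normalization gave a median SD of 0.12 and medians of -0.065 and 0.034 in replicates 3 and 4, and scaling to bright probe sets outside the family, added after the data were examined, gave -0.24 and 0.19. Near the top by a factor of 4 lay 33, 34, 33 and 35 members in replicates 1 to 4. Rps27 was lost without replicate 1, 2 or 4, and Rps27 and Rpl39 at the 99th percentile of the chemosensory probe sets. No paired analysis was possible because there is 1 group.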

Other observations

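A further 110 probe sets list a symbol of the same pattern together with other genes. Of these, 99 were above background (90%, against 40.9% of all probe sets). Their median differences from the other samples were 0.13, 0.0017, 0.20 and -0.28 log2 units in replicates 1 to 4, with 25 of 99 higher in replicate 4, under the deposited scaling; they were not recomputed after quantile normalization. Within a factor of 2 of the top of the array lay 45, 46, 43 and 57 of the 110. No gene is named from them.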
